A study of Mus musculus with 11 samples.

Results

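The suppressor of cytokine signalling (SOCS) family was described in sorted mouse lymphocytes. Its members were taken by gene symbol: Cish, Socs1, Socs2, Socs3, Socs4, Socs5, Socs6 and Socs7, 8 of the 57186 genes counted. Each member stood on 1 gene entry, and each had enough counts to be tested in every comparison. Bulk RNA sequencing was done on DN3 cells of the thymus (3 libraries), T cell precursors at the stage of T cell receptor beta rearrangement, and on group 2 innate lymphoid cells (ILC2) of the lung, tissue lymphocytes that secrete type 2 cytokines. The lung cells had been sorted into ZsGreen-positive ILC2 (3 libraries) and ZsGreen-negative ILC2 (5 libraries). All cells came from untreated 14-day-old mice of the genotype Cd3giCreRosa26stopZsGreen, which the controls share. Cre recombinase is driven by Cd3g in these mice and switches on ZsGreen for good, so the reporter marks cells that express Cd3g and the descendants of cells that once did. The questions addressed here were which of the 8 paralogs each population used, and which differed between populations.

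SOCS proteins carry an SH2 domain that binds phosphorylated tyrosines and a SOCS box that recruits elongins and a cullin to form a ubiquitin ligase. Most are known as feedback inhibitors of cytokine receptors that signal through Janus kinases (JAK) and STAT transcription factors, and several of their genes are themselves transcribed in response to STATs. In lymphocytes Cish and Socs2 are known targets of STAT5, while Socs1 and Socs3 hold a kinase inhibitory region that blocks JAK activity. Socs4 to Socs7 have long amino-terminal regions and are better known for binding growth factor receptors and their substrates.

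Total counts lay between 5951494 and 7745062 in DN3 libraries, between 5762491 and 17627469 in ZsGreen-positive libraries and between 4495260 and 14424313 in ZsGreen-negative libraries. Levels are counts scaled to a common library size (CPM) after TMM scaling over the 11 libraries. The labels give a batch date. All DN3 libraries share 1 date that no lung library has, and a difference between thymus and lung therefore cannot be told apart from one between dates, while ZsGreen-positive library 3 and ZsGreen-negative library 5 share a 2025 date and the other lung libraries a 2024 date. Of 10 ILC2 markers, Il1rl1, Il13, Areg and Klrg1 were at 0 in DN3 cells, where Gata3 had 84.0 and Il7r 129 CPM. Of 10 DN3 markers, Ptcra and Rag2 were at 0 in both lung groups. Against ZsGreen-negative ILC2, 8 DN3 markers were called higher and 1 lower in DN3 cells (all genes 35.5% and 41.2%). Bcl11b had 756 CPM in DN3 cells, 386 in ZsGreen-positive and 399 in ZsGreen-negative ILC2. Hes1 had a lower mean in DN3 cells, at 69.8 CPM against 89.2 and 155 CPM. Markers of lung structural cells (22 genes) summed to 135 to 160 CPM in DN3 libraries, 1113 to 2768 CPM in ZsGreen-positive libraries and 440 to 1265 CPM in ZsGreen-negative libraries. In DN3 cells 19 of the 22 had a mean below 1 CPM. Most of the DN3 sum came from Pecam1 (99.9 CPM) and Epcam (35.8 CPM), whose means were higher there than in either lung group. Macrophage and dendritic cell markers (10 genes) summed to 16.7 to 19.3 CPM in DN3, 141 to 428 CPM in ZsGreen-positive and 75.5 to 310 CPM in ZsGreen-negative libraries. B cell markers (5 genes) summed to 19.8 to 23.0, 16.0 to 39.9 and 16.6 to 18.3 CPM. Between the lung groups, 0 of 8 tested macrophage and dendritic cell markers and 1 of 4 B cell markers were called higher in ZsGreen-positive ILC2. In bulk samples, fewer cells of a type and less RNA per cell cannot be told apart. The labels do not say whether replicate libraries are of different animals. The p-values therefore rest on the variation among these libraries, and that variation may be technical.

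Cish took most of the family's RNA in lung ILC2 and little of it in DN3 cells. To set genes side by side, CPM was divided by transcript length in kb (the longest transcript of each gene). On this scale Cish made up 7.32% ± 1.79 of the summed family level in DN3 cells (SD, n = 3), 62.3% ± 1.67 in ZsGreen-positive ILC2 (SD, n = 3) and 60.8% ± 1.30 in ZsGreen-negative ILC2 (SD, n = 5). Every DN3 library lay between 6.15% and 9.38%, and every lung library between 59.7% and 63.7%, with the lung groups overlapping. The summed level of all members per kb was 68.1 ± 1.57 CPM in DN3 cells, 298.9 ± 10.1 CPM in ZsGreen-positive ILC2 and 257 ± 11.4 CPM in ZsGreen-negative ILC2. Without Cish, and uncorrected for length, the other 7 members summed to 273.5 ± 3.43 CPM in DN3 cells, 378 ± 17.5 CPM in ZsGreen-positive ILC2 and 353.5 ± 5.77 CPM in ZsGreen-negative ILC2.

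**Figure D1:**
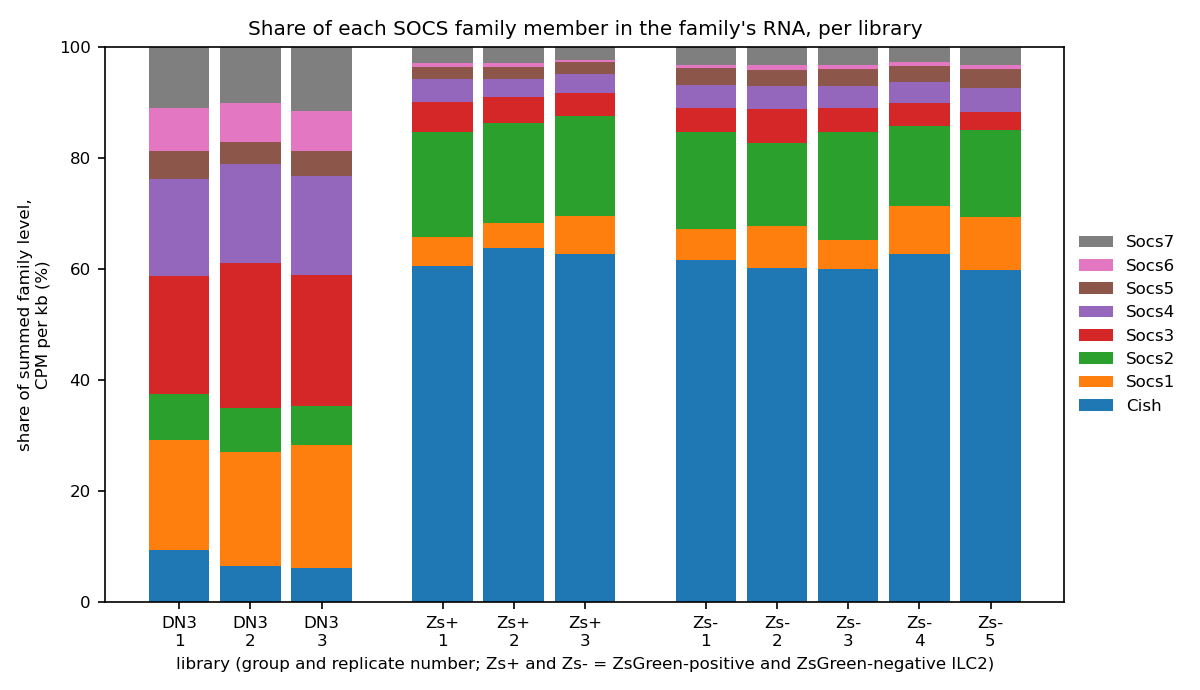
Share of each member in the summed family level, in percent of CPM per kb of transcript, as 1 stacked bar per library, with DN3 libraries left, ZsGreen-positive ILC2 in the middle and ZsGreen-negative ILC2 right. Cish fills 59.7% to 63.7% of every lung bar and 6.15% to 9.38% of every DN3 bar, where Socs3, Socs1 and Socs4 are the widest bands.

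The order of the paralogs differed between thymus and lung. In DN3 cells no single member stood far above the others. Socs3 had 16.1 ± 1.88 CPM per kb, Socs1 14.2 ± 0.57, Socs4 12.1 ± 0.34 and Socs7 7.42 ± 0.31 (SD, n = 3). Below these came Socs2 at 5.30 ± 0.52 CPM per kb, Cish at 4.99 ± 1.24, Socs6 at 4.94 ± 0.26 and Socs5 at 3.06 ± 0.36. On this scale the ranges of Socs3 and Socs1 overlapped, although Socs3 was above Socs1 within each of the 3 libraries, by 1.07 to 1.27 times. The ranges of Socs2, Cish and Socs6 overlapped too, with no fixed order within libraries.

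In ZsGreen-positive ILC2, Cish stood at 186 ± 10.6 CPM per kb and Socs2 at 54.8 ± 1.57, ahead of Socs1 at 16.6 ± 3.19 (SD, n = 3). Socs3 followed with 14.1 ± 1.87 CPM per kb, Socs4 with 10.7 ± 1.19, Socs7 with 8.18 ± 1.15, Socs5 with 6.60 ± 0.25 and Socs6 with 1.63 ± 0.52. In ZsGreen-negative ILC2 the order on this scale was the same, with Cish at 156 ± 9.86 CPM per kb, Socs2 at 42.2 ± 5.43, Socs1 at 18.7 ± 4.47, Socs3 at 11.4 ± 2.62, Socs4 at 10.5 ± 0.16, Socs7 at 7.99 ± 0.44, Socs5 at 7.87 ± 0.39 and Socs6 at 1.87 ± 0.23 (SD, n = 5). Ranges of Socs1 and Socs3, and of Socs3 and Socs4, overlapped in both lung groups, as did those of Socs7 and Socs5 in ZsGreen-negative ILC2. Within libraries, Socs3 was above Socs4 in 3 of 3 ZsGreen-positive libraries and 4 of 5 ZsGreen-negative ones, and Socs1 above Socs3 in 2 of 3 ZsGreen-positive libraries and 5 of 5 ZsGreen-negative ones. In each lung library Cish exceeded Socs2 per kb, by 3.20 to 3.53 times in ZsGreen-positive and by 3.11 to 4.34 times in ZsGreen-negative ILC2.

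The choice of length moved the second place in the lung groups and the order in DN3 cells. With the union of all annotated exons as the length, Cish remained first in both lung groups at 82.7 CPM per kb in ZsGreen-positive and 69.5 CPM per kb in ZsGreen-negative ILC2. Socs2 then had 12.8 CPM per kb in ZsGreen-positive ILC2, behind Socs1 at 16.6, and 9.84 CPM per kb in ZsGreen-negative ILC2, behind Socs1, Socs4 and Socs3. In DN3 cells Socs3 had 14.24 and Socs1 14.16 CPM per kb of exon union, and Socs2 was last at 1.24. There Socs1 took a larger share than Socs3 in DN3 libraries 1 (24.6% against 23.2%) and 3 (26.5% against 25.1%). In DN3 library 2 its share was smaller (24.9% against 27.9%). The share of Cish on that scale was 3.97% in DN3 cells, 55.6% in ZsGreen-positive ILC2 and 52.2% in ZsGreen-negative ILC2. Percentiles among the genes with a length placed Cish per kb at 43.4 in DN3 cells, at 97.7 in ZsGreen-positive ILC2 and at 97.3 in ZsGreen-negative ILC2.

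Of the STAT5-responsive pair, Cish, which binds phosphorylated cytokine receptors and limits STAT5 signalling and T cell receptor responses, differed most. Cish was at 18.3, 12.7 and 11.6 CPM in DN3 libraries 1 to 3, at 505, 564 and 523 CPM in ZsGreen-positive libraries 1 to 3, and at 453, 432, 447, 487 and 411 CPM in ZsGreen-negative libraries 1 to 5. The DN3 libraries were far below all lung libraries, and the lowest ZsGreen-positive library was above the highest ZsGreen-negative one. Against ZsGreen-positive ILC2, Cish was 37.6-fold lower in DN3 cells (log2 fold change -5.23 ± 0.14 SE; edgeR quasi-likelihood test, BH-adjusted p = 6.39e-19). Relative to ZsGreen-negative ILC2 it was 31.6-fold lower in DN3 cells (-4.98 ± 0.13, edgeR adjusted p = 6.03e-19). Exons of Cish share 261 bases with the gene Gm17040 and 479 with Gm17041, both on the opposite strand in the reference annotation. Gm17040 had 0 counts in each DN3 library, 0 to 17 in ZsGreen-positive and 1 to 6 in ZsGreen-negative libraries, against at least 100 for Cish in every library. Gm17041 had 0 counts in every library. How reads in the shared bases were counted is not known.

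Socs2, the other of the pair and best known as a brake on growth hormone receptor signalling, followed the same order. It was at 12.6, 12.2 and 10.5 CPM in DN3 libraries, at 123, 124 and 118 CPM in ZsGreen-positive libraries and at 99.8, 84.4, 112, 87.5 and 84.9 CPM in ZsGreen-negative libraries. No groups overlapped. Socs2 was 10.3-fold lower in DN3 cells than in ZsGreen-positive ILC2 (log2 fold change -3.37 ± 0.13, edgeR adjusted p = 2.52e-16) and 7.93-fold lower than in ZsGreen-negative ILC2 (-2.99 ± 0.12, adjusted p = 7.32e-16).

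**Figure D2:**
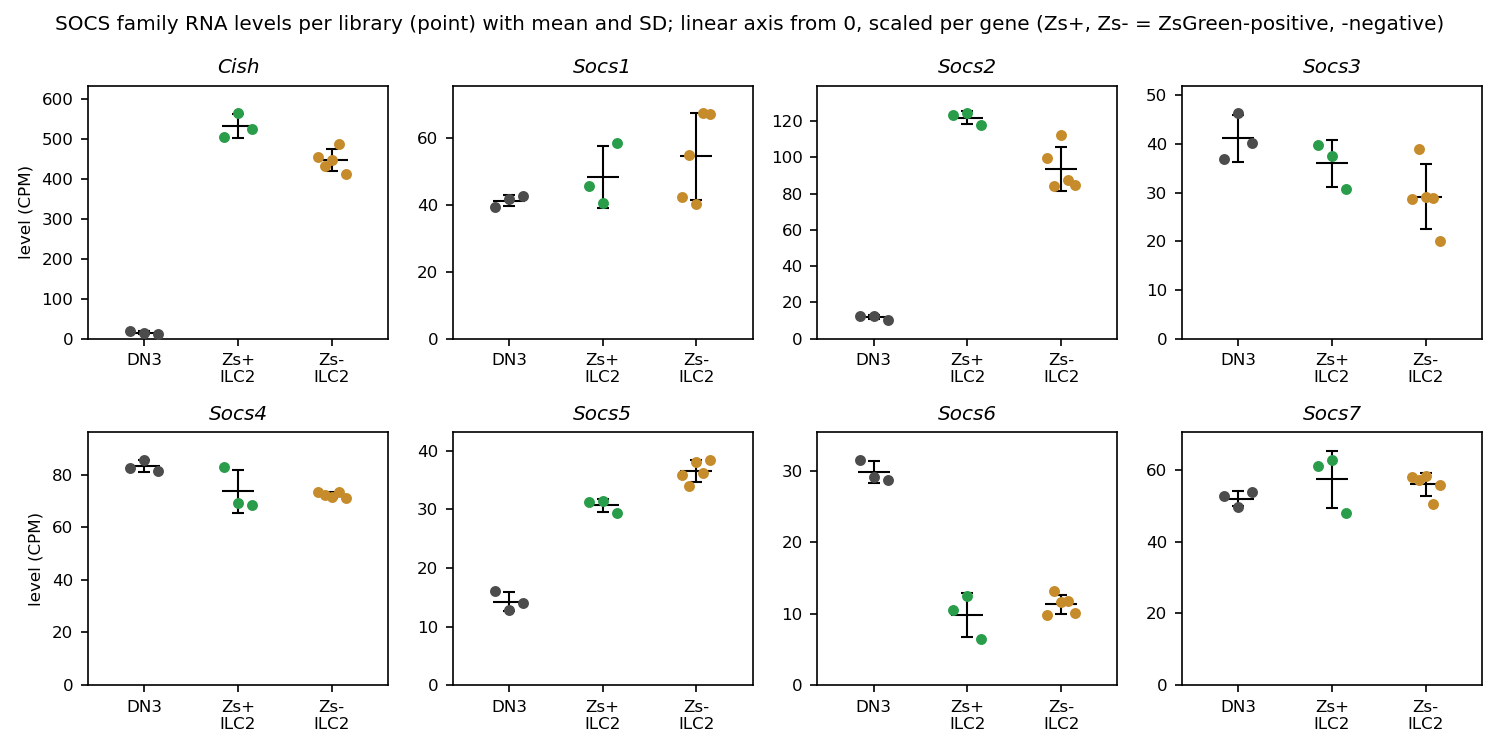
Level of each member in CPM (linear axis from 0, a scale per gene) with 1 point per library, the mean as a bar and the SD as whiskers, for DN3 cells, ZsGreen-positive ILC2 (Zs+) and ZsGreen-negative ILC2 (Zs-). Cish, Socs2 and Socs5 are lowest and Socs6 highest in all 3 DN3 libraries, while Socs7 overlaps between all groups.

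Start regions of the members were compared for the STAT motif TTCNNNGAA, in which N is any base, because Cish and Socs3 are textbook STAT targets and differed in opposite directions between DN3 cells and ZsGreen-negative ILC2. Windows from 180 bases before to 30 bases after an annotated start were cut from longer RefSeq windows (GRCm38.p6, not the build of the counts). Matches in the bases cut off were not counted. A window was at hand for Cish, Socs1, Socs3 and Socs4. Each window rests on a single annotated start. Matches are in capitals, 5′ to 3′ on the gene's strand, in the window of Cish (chr9:107296479-107296688, plus strand), that of Socs3 (chr11:117969337-117969546, minus strand) and that of Socs1 (chr16:10785507-10785716, minus strand), which is shown as one without a match.
Cish: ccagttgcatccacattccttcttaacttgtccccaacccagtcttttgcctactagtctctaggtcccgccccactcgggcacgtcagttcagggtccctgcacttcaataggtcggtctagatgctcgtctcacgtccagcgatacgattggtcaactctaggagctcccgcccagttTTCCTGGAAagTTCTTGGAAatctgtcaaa
Socs3: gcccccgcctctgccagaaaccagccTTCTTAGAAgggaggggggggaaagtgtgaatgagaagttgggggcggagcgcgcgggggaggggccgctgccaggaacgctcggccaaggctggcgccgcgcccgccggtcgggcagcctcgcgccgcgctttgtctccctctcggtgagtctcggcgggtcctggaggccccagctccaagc
Socs1: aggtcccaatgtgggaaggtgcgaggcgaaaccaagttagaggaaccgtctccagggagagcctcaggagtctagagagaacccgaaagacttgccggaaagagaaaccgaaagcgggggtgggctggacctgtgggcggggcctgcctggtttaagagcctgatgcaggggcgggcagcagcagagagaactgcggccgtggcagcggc

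The Cish window held 2 matches that do not overlap, TTCCTGGAA from position 1 and TTCTTGGAA from position 12 counted from the start. The Socs3 window held 1, TTCTTAGAA from position -154, and those of Socs1 and Socs4 held 0. The motif reads the same on both strands. Of 32851 windows cut to this length, 5.71% held at least 1 match and 0.268% held at least 2. A match is a description of these letters and not a measured binding site, and no match says only that these letters are absent from this window.

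The members with a kinase inhibitory region differed little. Socs1, the main brake on interferon gamma signalling, was at 39.3, 41.6 and 42.6 CPM in DN3 libraries, at 45.5, 40.5 and 58.5 CPM in ZsGreen-positive libraries and at 42.3, 55.0, 40.3, 67.4 and 67.1 CPM in ZsGreen-negative libraries. The 3 groups overlapped, and the lung libraries were more widely spread than the DN3 ones. Socs1 was lower in DN3 cells than in ZsGreen-negative ILC2 (log2 fold change -0.42 ± 0.17, edgeR adjusted p = 0.0329). That call was lost when any 1 DN3 library, or ZsGreen-negative library 2, 4 or 5, was left out, with edgeR adjusted p from 0.0554 to 0.0936. It was also lost with the lung libraries of 2024 alone (-0.30 ± 0.14, edgeR adjusted p = 0.0618). Against ZsGreen-positive ILC2 the log2 fold change was -0.24 ± 0.18 (edgeR adjusted p = 0.241).

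Socs3, which binds the shared receptor chain gp130 and limits STAT3, was at 37.0, 46.4 and 40.2 CPM in DN3 libraries, at 39.9, 37.6 and 30.7 CPM in ZsGreen-positive libraries and at 28.7, 38.9, 29.1, 28.9 and 20.0 CPM in ZsGreen-negative libraries. DN3 libraries lay high and overlapped both lung groups. Socs3 was 1.44-fold higher in DN3 cells than in ZsGreen-negative ILC2 (log2 fold change 0.52 ± 0.16, edgeR adjusted p = 0.00529), and the call held in all 15 alternatives tried. Against ZsGreen-positive ILC2 it did not pass (0.21 ± 0.17, edgeR adjusted p = 0.283). The ratio of Socs1 to Socs3 per kb of longest transcript was 0.884 ± 0.08 in DN3 cells, 1.21 ± 0.40 in ZsGreen-positive ILC2 and 1.75 ± 0.75 in ZsGreen-negative ILC2. Immediate early genes, of which Socs3 is often counted one, moved the other way. In DN3 cells 26 of 29 listed genes were lower and 2 higher than in ZsGreen-negative ILC2 (all genes 41.2% and 35.5%). Their median log2 fold change was -7.37, against -0.10 over all genes. Their part in the level of Socs3 was not tested.

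Socs4 and Socs5, close relatives best known for limiting epidermal growth factor receptor signalling, differed in their pattern. Socs4 was at 82.8, 85.8 and 81.3 CPM in DN3 libraries, at 83.1, 69.4 and 68.5 CPM in ZsGreen-positive libraries and at 73.3, 72.5, 71.4, 73.5 and 71.1 CPM in ZsGreen-negative libraries. DN3 libraries lay above all ZsGreen-negative ones and overlapped the ZsGreen-positive range through library 1 of that group. Socs4 was 1.15-fold higher in DN3 cells than in ZsGreen-negative ILC2 (log2 fold change 0.20 ± 0.08, edgeR adjusted p = 0.0293), a call lost without DN3 library 1 (adjusted p = 0.0633) or DN3 library 2 (adjusted p = 0.108), or with no filter on low counts (0.17 ± 0.10, edgeR adjusted p = 0.163). Against ZsGreen-positive ILC2 it did not pass (0.18 ± 0.09, edgeR adjusted p = 0.0819), but did without ZsGreen-positive library 1 (0.26 ± 0.10, edgeR adjusted p = 0.0179).

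Socs5 was at 16.0, 12.7 and 14.0 CPM in DN3 libraries, at 31.2, 31.5 and 29.4 CPM in ZsGreen-positive libraries and at 36.0, 34.1, 38.1, 36.2 and 38.5 CPM in ZsGreen-negative libraries. The 3 groups did not overlap. It was 2.16-fold lower in DN3 cells than in ZsGreen-positive ILC2 (log2 fold change -1.11 ± 0.12, edgeR adjusted p = 4.9e-08) and 2.58-fold lower than in ZsGreen-negative ILC2 (-1.37 ± 0.11, adjusted p = 3.83e-10).

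Socs6, which binds the receptor kinase KIT and the insulin receptor, was the one member called higher in DN3 cells than in both lung groups. It was at 31.6, 29.1 and 28.8 CPM in DN3 libraries, at 10.5, 12.5 and 6.42 CPM in ZsGreen-positive libraries and at 9.80, 13.2, 11.7, 11.7 and 10.1 CPM in ZsGreen-negative libraries. Every DN3 library was above every lung library, and the lung groups overlapped. Socs6 was 3.18-fold higher in DN3 cells than in ZsGreen-positive ILC2 (log2 fold change 1.67 ± 0.19, edgeR adjusted p = 7.67e-08) and 2.66-fold higher than in ZsGreen-negative ILC2 (1.41 ± 0.17, adjusted p = 9.1e-08). Its target Kit was lower in DN3 cells, at 52.0 ± 3.78 CPM, against 611 ± 47.3 CPM in ZsGreen-positive and 706 ± 71.5 CPM in ZsGreen-negative ILC2 (edgeR adjusted p = 3.04e-17 and 5.3e-18). Of 9 tested genes listed as SH2 and SOCS partners of receptor kinases, 6 were lower and 1 higher in DN3 cells than in ZsGreen-negative ILC2. Over all genes 41.2% were lower and 35.5% higher. A link between the levels of Socs6 and Kit was not tested.

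Socs7, known to bind insulin receptor substrates and the adaptor Nck, passed in neither DN3 comparison. It was at 52.8, 49.6 and 53.8 CPM in DN3 libraries, at 61.1, 63.0 and 48.2 CPM in ZsGreen-positive libraries and at 58.0, 57.3, 58.3, 50.7 and 55.9 CPM in ZsGreen-negative libraries. All groups overlapped. Its log2 fold change in DN3 cells was -0.13 ± 0.11 against ZsGreen-positive ILC2 (edgeR adjusted p = 0.289) and -0.10 ± 0.10 against ZsGreen-negative ILC2 (adjusted p = 0.342). With the 2 ZsGreen-positive libraries of 2024 alone it passed, at -0.23 ± 0.10 (edgeR adjusted p = 0.0461).

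Between DN3 cells and ZsGreen-negative ILC2, 7 of 8 members passed, 3 higher (Socs3, Socs4, Socs6) and 4 lower (Cish, Socs1, Socs2, Socs5). That is 87.5% of the members, where 76.7% of the 15132 genes tested passed (35.5% higher and 41.2% lower), so the count is near the background. Libraries of these groups did not overlap for 5 members, against 73.9% of all genes. Between DN3 cells and ZsGreen-positive ILC2, 4 of 8 passed, 1 higher (Socs6) and 3 lower (Cish, Socs2, Socs5), against 75.1% of all genes (34.8% higher and 40.3% lower). Here 4 members did not overlap, against 78.1% of all genes. The median log2 fold change of the 8 members was -0.19 in DN3 cells against ZsGreen-positive ILC2, with -0.08 over all genes, and -0.26 against ZsGreen-negative ILC2, with -0.10 over all genes. Both comparisons use the same DN3 libraries.

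**Figure D3:**
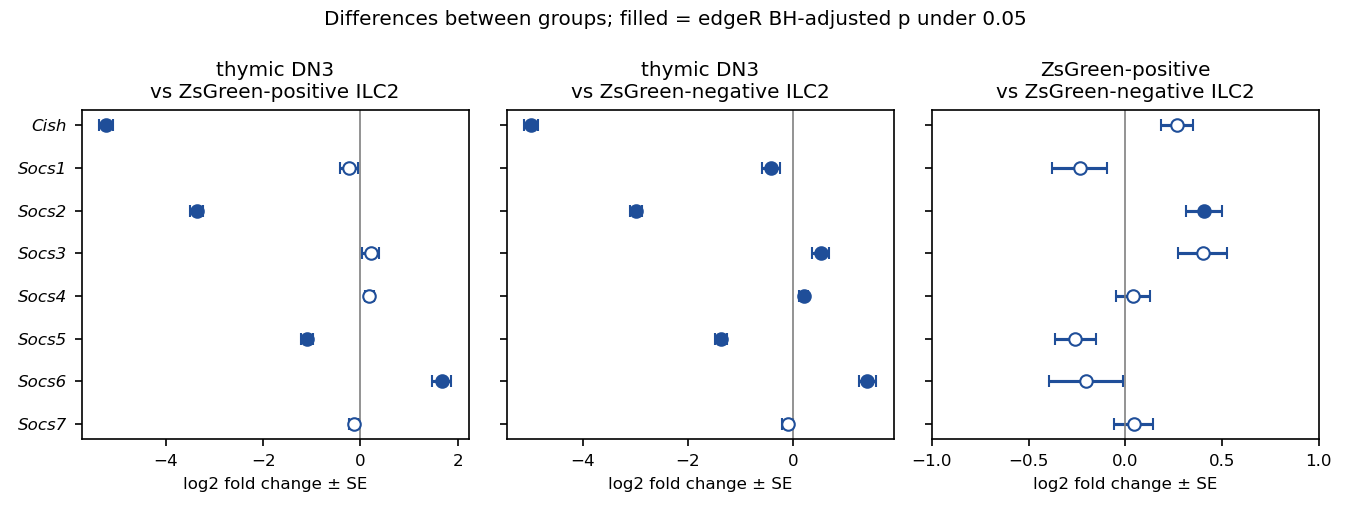
Log2 fold change with SE of each member in 3 comparisons (each panel has its own horizontal scale), with filled points for edgeR BH-adjusted p under 0.05. Cish reaches -5.23 and -4.98 in the DN3 panels and Socs6 1.67 and 1.41, while the lung panel spans less than 1 log2 unit and holds 1 filled point, Socs2.

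Within the lung, ZsGreen-positive and ZsGreen-negative ILC2 had the same order of members per kb of longest transcript, though not per kb of exon union, and 1 of 8 members was called. That is 12.5%, where 4.52% of the 13771 genes tested passed (2.35% higher and 2.18% lower), and the member was Socs2, higher in ZsGreen-positive ILC2. By edgeR 0 members were lower, with 1 (Socs5) at an unadjusted p under 0.05 and 0 by DESeq2 or limma voom. The mean of Socs2 was 122 ± 3.49 CPM in ZsGreen-positive ILC2 and 93.7 ± 12.1 CPM in ZsGreen-negative ILC2 (SD, n = 3 and 5). That is a 1.32-fold difference (log2 fold change 0.41 ± 0.09, edgeR with a batch term, adjusted p = 0.0162). The call was lost without ZsGreen-positive library 1 (adjusted p = 0.0597), 2 (0.0677) or 3 (0.0933), or without ZsGreen-negative library 5 (0.1), while the edgeR log2 fold change stayed between 0.36 and 0.46 over all 8 libraries left out in turn. The score of structural cell markers also had a higher mean in ZsGreen-positive ILC2. This score, the mean log2(CPM + 1) of the 22 markers, was 4.27 to 5.13 in ZsGreen-positive and 3.12 to 4.55 in ZsGreen-negative libraries. In a fit that included the score, Socs2 had a log2 fold change of 0.19 ± 0.13 (edgeR adjusted p = 0.798). In the same fit Cish had 0.27 ± 0.13 (edgeR adjusted p = 0.624) and Socs3 0.39 ± 0.20 (0.651), while Socs1 changed sign to 0.15 ± 0.18. The score differed between the groups, so this fit cannot tell its part from that of the group. Of 21 structural markers tested, 2 were called higher and 0 lower by edgeR (11 higher and 0 lower at an unadjusted p under 0.05; 6 and 0 by DESeq2; 14 and 0 by limma voom), with a median log2 fold change of 1.13, and the part of these cells in the Socs2 level was not tested.

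Cish averaged 531 ± 30.1 CPM in ZsGreen-positive ILC2 and 446 ± 28.1 CPM in ZsGreen-negative ILC2. Its log2 fold change of 0.27 ± 0.08 did not pass (edgeR adjusted p = 0.0763), although DESeq2 called it (0.27 ± 0.08, adjusted p = 0.0215). Socs3 had the same size of difference as Socs2 with overlapping groups (0.40 ± 0.13, edgeR adjusted p = 0.0797), and passed without ZsGreen-negative library 2 (0.48 ± 0.11, edgeR adjusted p = 0.0174). Socs5 lay lower in every ZsGreen-positive library and did not pass (-0.26 ± 0.11, edgeR adjusted p = 0.201). Cish, Socs2 and Socs5 were the 3 members whose lung groups did not overlap, 3 of 8, against 10.2% of all genes.

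The other 4 members did not pass in the lung comparison. Socs1 had a log2 fold change of -0.24 ± 0.14 (edgeR adjusted p = 0.467), Socs4 0.04 ± 0.09 (0.897), Socs6 -0.20 ± 0.19 (0.699) and Socs7 0.04 ± 0.10 (0.896). The median over the 8 members was 0.04, against -0.00058 over all genes.

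Cish and Socs2 stood in the same order of groups in both batches. In 2024, Socs2 was at 123 and 124 CPM in the 2 ZsGreen-positive libraries and between 84.4 and 112 CPM in the 4 ZsGreen-negative libraries, and Cish at 505 and 564 CPM in those ZsGreen-positive and between 432 and 487 CPM in those ZsGreen-negative libraries. In the 2025 pair, Socs2 was at 118 CPM in the ZsGreen-positive and 84.9 CPM in the ZsGreen-negative library, and Cish at 523 CPM in the ZsGreen-positive and 411 CPM in the ZsGreen-negative library. In that pair Socs3 was at 30.7 CPM in the ZsGreen-positive and 20.0 CPM in the ZsGreen-negative library, and Socs5 at 29.4 CPM in the ZsGreen-positive and 38.5 CPM in the ZsGreen-negative library. With the 2024 libraries alone, Socs2 had a log2 fold change of 0.38 ± 0.11 and did not pass (edgeR adjusted p = 0.0981). The 2025 batch, with 1 library a group, allows no test.

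**Figure D4:**
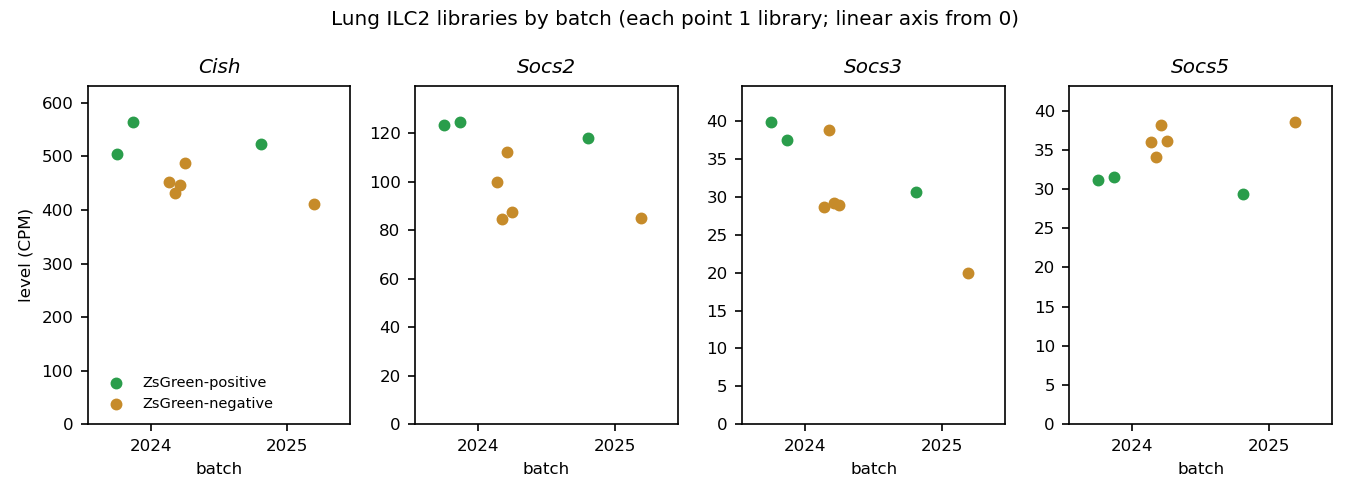
Levels of Cish, Socs2, Socs3 and Socs5 in CPM (linear axis from 0) in each lung library by batch year, with ZsGreen-positive libraries left of ZsGreen-negative ones. Socs2 is at 118 to 124 CPM in ZsGreen-positive and at 84.4 to 112 CPM in ZsGreen-negative libraries, with the same order in both batches.

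Upstream of the family, the 4 JAK kinases were all lower in DN3 cells than in both lung groups. Over all genes, 41.2% were lower than in ZsGreen-negative and 40.3% lower than in ZsGreen-positive ILC2. Jak3, which pairs with the common gamma chain, was at 92.3 ± 4.86 CPM in DN3 cells, 581 ± 23.9 CPM in ZsGreen-positive and 522 ± 21.0 CPM in ZsGreen-negative ILC2. Against ZsGreen-negative ILC2 the log2 fold change of Jak3 was -2.50 ± 0.09 (edgeR adjusted p = 6.51e-17), and the median over the 4 kinases was -2.08, with -0.10 over all genes. STAT factors went both ways. Stat5a, which carries signals of interleukins 2 and 7 to the Cish and Socs2 genes, was at 212 ± 6.10 CPM in DN3 cells, 54.5 ± 2.53 CPM in ZsGreen-positive and 48.0 ± 4.13 CPM in ZsGreen-negative ILC2. Stat5a and Stat5b were the 2 of 7 STATs higher in DN3 cells than in either lung group, and Stat3, Stat4 and Stat6 the 3 lower. Over all genes, 76.7% were called against ZsGreen-negative and 75.1% against ZsGreen-positive ILC2, so the STAT count is near the background. For Stat5a the log2 fold change was 2.14 ± 0.08 against ZsGreen-negative ILC2 (edgeR adjusted p = 2.61e-16).

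Of 27 JAK-STAT cytokine receptor chains tested, 20 were lower and 5 higher in DN3 cells than in ZsGreen-negative ILC2 (all genes 41.2% and 35.5%), with a median log2 fold change of -2.51. Il7r, the interleukin 7 receptor chain, was at 129 ± 2.72 CPM in DN3 cells, 1226 ± 24.7 CPM in ZsGreen-positive and 1367 ± 59.5 CPM in ZsGreen-negative ILC2. Il2rb, the signalling chain for interleukins 2 and 15, was at 0.370 ± 0.24 CPM in DN3 cells, 452 ± 50.3 CPM in ZsGreen-positive and 451 ± 45.8 CPM in ZsGreen-negative ILC2. Il2ra, a DN3 marker, was at 1106 ± 10.4 CPM in DN3 cells, 817 ± 127 CPM in ZsGreen-positive and 960 ± 69.2 CPM in ZsGreen-negative ILC2. Other genes that STAT5 is known to induce were lower in DN3 cells in 11 of 14 cases and higher in 2, Ccnd3 and Myc, against ZsGreen-negative ILC2. The kinase gene Pim1 was at 79.4 ± 1.59 CPM in DN3 cells, 659 ± 30.9 CPM in ZsGreen-positive and 850 ± 129 CPM in ZsGreen-negative ILC2 (edgeR adjusted p = 9.81e-17 for DN3 cells against ZsGreen-negative ILC2).

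The ligase partners of the SOCS box went both ways. Of 11, 6 were higher and 2 lower in DN3 cells than in ZsGreen-negative ILC2, where 76.7% of all genes were called (35.5% higher and 41.2% lower), with a median log2 fold change of 0.23. Cul5, the cullin that SOCS proteins recruit, had 54.5 ± 2.33 CPM in DN3 cells, 41.7 ± 4.92 CPM in ZsGreen-positive and 46.4 ± 4.05 CPM in ZsGreen-negative ILC2 (edgeR adjusted p = 0.037 for DN3 cells against ZsGreen-negative ILC2). The lower pair of ligase partners were Arih1 and Arih2, ligases that work with cullins. Among 17 other SOCS box proteins tested, 10 were lower and 2 higher in DN3 cells than in ZsGreen-negative ILC2. Asb2, which targets filamins for degradation, was at 0.0776 ± 0.13 CPM in DN3 cells, 116 ± 6.68 CPM in ZsGreen-positive and 95.8 ± 2.30 CPM in ZsGreen-negative ILC2. Among 13 other inhibitors of JAK-STAT signalling, 5 were higher and 5 lower in DN3 cells than in ZsGreen-negative ILC2. Counted in either direction, the calls among ligase partners, SOCS box proteins and inhibitors are near the share over all genes.

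**Figure D5:**
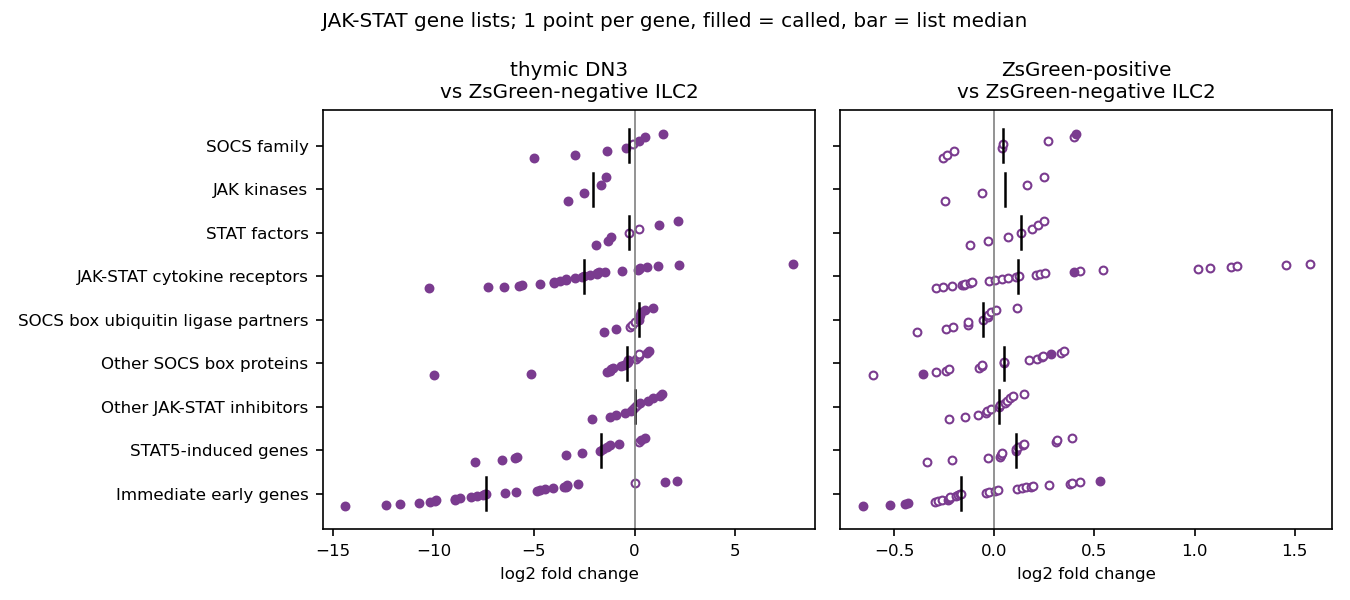
Log2 fold change of every tested gene of the SOCS family and 8 related lists, for DN3 cells against ZsGreen-negative ILC2 (left) and ZsGreen-positive against ZsGreen-negative ILC2 (right; scales differ), with filled points for genes called and a bar for the list median. The medians left are -0.26 for the SOCS family, -2.08 for JAK kinases and -2.51 for cytokine receptors.

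Between the lung groups, where 4.52% of all genes were called, calls in the JAK-STAT and SOCS box lists were on cytokine ligands, 1 receptor chain and 2 SOCS box proteins. Of 12 JAK-STAT cytokine ligands tested, 3 were higher in ZsGreen-positive ILC2 and 0 lower by edgeR, with a median log2 fold change of 0.30; 6 were higher and 0 lower at an unadjusted p under 0.05, and DESeq2 and limma voom each had 4 higher and 0 lower. Il13, a type 2 cytokine of ILC2, was at 1055 ± 104 CPM in ZsGreen-positive and 638 ± 127 CPM in ZsGreen-negative ILC2 (log2 fold change 0.79 ± 0.12, edgeR adjusted p = 0.000766). Il4, which drives type 2 responses, was at 29.4 ± 5.01 CPM in ZsGreen-positive and 12.95 ± 3.05 CPM in ZsGreen-negative ILC2 (1.25 ± 0.15, edgeR adjusted p = 5.57e-05). Il6, a ligand of gp130 receptors, was at 15.4 ± 1.77 CPM in ZsGreen-positive and 7.84 ± 1.72 CPM in ZsGreen-negative ILC2 (1.04 ± 0.20, edgeR adjusted p = 0.00407). Structural cell markers had a median log2 fold change of 1.13 between the same groups, and the part of structural cells in these ligand levels was not tested. By edgeR, 0 of 4 JAK kinases passed, while 2 had an unadjusted p under 0.05, and DESeq2 called 1 and limma voom 0. Of 7 STAT factors 0 passed, with 1 at an unadjusted p under 0.05 and 0 by either other tool, and the same 3 counts held for the 11 SOCS box ligase partners. Of 14 STAT5-induced genes 0 passed by edgeR, with 3 at an unadjusted p under 0.05, 1 by DESeq2 and 0 by limma voom. Of 26 receptor chains 1 passed, Il10ra, the ligand-binding chain for interleukin 10, at 426 ± 18.5 CPM in ZsGreen-positive and 320.2 ± 19.9 CPM in ZsGreen-negative ILC2 (log2 fold change 0.40 ± 0.08, edgeR adjusted p = 0.00482). Of 17 other SOCS box proteins, Asb2 was higher in ZsGreen-positive ILC2 (0.28 ± 0.08, edgeR adjusted p = 0.0476) and Wsb1 was lower (-0.36 ± 0.08, edgeR adjusted p = 0.0121). Outside these lists, 1 of 29 immediate early genes was higher and 4 lower in ZsGreen-positive ILC2 by edgeR. At an unadjusted p under 0.05 these were 3 and 11, by DESeq2 1 and 7, and by limma voom 1 and 5. Of 9 tested partners of receptor kinases, 2 were higher and 1 lower by edgeR.

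Some genes followed the members closely over the 11 libraries, by the root mean square difference of log2 CPM after centring each gene, among 12018 named genes. For Cish the closest were Adam8 (0.17), Traf1 (0.18) and Inf2 (0.18), and for Socs2 Rbpj (0.12), Gpr171 (0.13) and Ipmk (0.15). Closest to Socs5 were Ets1 (0.07), Sfxn3 (0.08) and Ccnt1 (0.09), to Socs6 Dtx3l (0.13), AI506816 (0.15) and Cdin1 (0.17), and to Socs3 Ctla4 (0.17), Mfap1b (0.17) and Glyctk (0.18). Socs1 was nearest to Srp14 (0.15), Ubxn1 (0.15) and Ndufs3 (0.17), Socs4 to Hsd17b4 (0.05), Mkln1 (0.06) and Wapl (0.06), and Socs7 to Rictor (0.07), Rcor1 (0.07) and Ap5m1 (0.07). Within the family, by the same measure, Socs4 and Socs7 were the closest pair (0.18), and the member nearest to Cish was Socs2 (0.89). These distances are descriptions of these libraries.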

How the data were processed

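The authors deposited whole-number counts per gene in 2 tables, 1 with the 8 lung libraries and 1 with all 11, whose lung columns were identical (0 differed). The submitters' processing notes name GRCm39 and DESeq2; the sources used here give no aligner, counter, annotation or strand setting, so antisense reads cannot be told apart. The members, gene lists, rules and tests were chosen with earlier results of these data known.

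Tests were edgeR's quasi-likelihood test (version 4.0.16, R 4.3.3; TMM, filterByExpr with a minimum count of 10, robust dispersions), with p adjusted over all genes tested by Benjamini-Hochberg (BH) with a threshold of 0.05. The lung comparison used 8 libraries with batch as a term; DN3 comparisons used all 11 without it. Scripts were tested on simulated data. Replicate pairs had a chi-square per degree of freedom of 1.72 to 13.4 over 16 pairs, so none agreed within sampling noise. Gene length was the longest basic transcript of GENCODE M21 (GRCm38), found for all 8 members. From each list, up to 4 called genes were named by p, if they reached 5 CPM in either group. Il2ra, Cul5, Gm17040, Gm17041, Gata3, Bcl11b, Hes1, Pecam1 and Epcam, and Il7r as a marker, were chosen after their values were seen. Each member has 3 genes of most similar pattern. Alternatives were RLE and upper-quartile scaling, no filter, DESeq2 1.42.0, limma 3.58.1 voom, each library left out, no batch term, 2024 libraries alone, the replicate block and the structural score; the exon union length and left-out libraries for the shares were added after the data were seen.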

Additional observations from a re-analysis of the deposited data

How the results depend on the processing

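Cish, Socs2, Socs5 and Socs6 kept direction and call in both DN3 comparisons under every alternative run (15 and 13). Under upper-quartile scaling the all-gene median shifted by 0.11 (log2) for DN3 cells against ZsGreen-negative ILC2, where the Socs1 call was lost (edgeR adjusted p = 0.0996) and Socs7 turned to 0.00088. Members called higher in DN3 cells than in ZsGreen-positive ILC2 were 2 with upper-quartile scaling, 2 with DESeq2 and 1 to 2 with a library left out. In the lung comparison, without a filter on low counts 621 genes were higher and 460 lower in ZsGreen-positive ILC2, against 323 and 300 with it. The 2024 batch alone gave 145 and 153, the structural score as a term 29 and 57, and leaving out 1 library 146 to 471 and 140 to 343. Members called higher there were 2 with DESeq2, 0 with 2024 alone, 0 with the structural score and 0 to 2 with a library left out. Uncalled lung values that changed sign were Socs1 at 0.15 and Socs6 at 0.014 with the structural score, Socs4 without ZsGreen-positive library 1 (-0.060, and up to 0.089 with others left out), and Socs7 without ZsGreen-positive library 2 (-0.016, and up to 0.16 with others left out) and ZsGreen-negative library 4 (-0.00031). The cause was not tested, apart from fewer libraries in those left out. The Cish share was 3.97% (exon union) and 4.93% (no length) in DN3 cells, 55.6% and 58.4% in ZsGreen-positive and 52.2% and 55.7% in ZsGreen-negative ILC2.

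Libraries that share a replicate number had correlations of deviations from their group means of -0.09 to 0.07. Libraries with different numbers were not correlated for comparison, so these values cannot decide whether the numbers pair libraries. By the labels, replicate 3 has a 2025 date in ZsGreen-positive and a 2024 date in ZsGreen-negative ILC2, so that block mixes batches. ZsGreen-negative libraries 4 and 5 share their number with no other library. With the replicate block in place of batch, 130 genes were higher and 103 lower in ZsGreen-positive ILC2, with 0 members called higher, Socs2 at 0.32 (edgeR adjusted p = 0.321), Socs1 at 0.079 and Socs7 at -0.014. With the block, Socs1 (-0.16) and Socs4 (0.21) were not called in DN3 cells against ZsGreen-negative ILC2.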
